A study of Mus musculus with 34 samples.

Results

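The genes described here are the enzymes that make, interconvert and break down serine and glycine, together with the transporters that carry these amino acids: Phgdh, Psat1, Psph, Shmt1, Shmt2, Gldc, Srr, Slc7a10, Slc6a9 and Aldh1l1. They were chosen by name, and all 10 were found among the 20613 genes with values. The study measured polyadenylated RNA of astrocytes taken by magnetic isolation from the cortex of WT male mice, to follow development and aging. The 34 libraries covered 9 ages, of which 5 are given as postnatal days (P) and 4 as months (m). There were 4 libraries each at P7, P14 and 18m, 3 each at P21, P28, P60 and 12m, and 5 each at 3m and 6m. No group was treated and no strain was named. Whether libraries came from separate animals is not given in the sources used here, so p-values measure the spread between these libraries only.

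Serine is made from the glycolytic intermediate 3-phosphoglycerate by Phgdh, Psat1 and Psph in turn, and in brain this synthesis takes place mainly in astrocytes. Shmt1 in the cytosol and Shmt2 in mitochondria convert serine to glycine and load a carbon unit onto tetrahydrofolate, Gldc is the decarboxylase of the mitochondrial glycine cleavage system, and Aldh1l1 oxidises 10-formyltetrahydrofolate in the cytosol and is a common astrocyte marker. Srr is serine racemase, which makes D-serine, a co-agonist of NMDA receptors, while Slc7a10 (Asc-1) exchanges small neutral amino acids including D-serine, and Slc6a9 (GlyT1) takes up glycine.

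Values are TPM, a gene's share of all transcripts corrected for length and scaled to a fixed sum, so that levels of different genes can be set side by side. TPM keep no read counts, and the depth of each library is unknown. Differences between ages were tested with limma on log2(TPM + 1), which understates changes of genes at low level, and calls of higher or lower need an adjusted p under 0.05 (Benjamini-Hochberg) over the 14590 genes tested. Folds are ratios of mean TPM. The number of genes listed at 0 put the libraries in 3 separate ranges. It was 4109 to 4819 in 14 libraries (P7, P14, 18m and 12m replicates 1 and 2), 2854 to 3523 in 9 (P21, P28 and P60) and 1155 to 1704 in 11 (3m, 6m and 12m replicate 3). In P60 vs P7, P21 vs P14 and 3m vs P60 the ages lie wholly in different ranges, so age cannot be told apart from range. In 18m vs 3m the 12m libraries alone link the ranges, while 18m vs P7, P14 vs P7 and 6m vs 3m lie within a range. The 10 astrocyte markers summed to 10891 to 26349 TPM over the libraries. Markers of erythroid cells were also abundant and varied widely, from 262 TPM to 37395 TPM, and exceeded the astrocyte sum in P21 replicate 3 and 12m replicate 1. Their mean sum was 26402 TPM at P21, 13741 TPM at 12m and 11553 TPM at 18m, and 3289 to 5424 TPM at the other ages, 4897 TPM at P7 and 4001 TPM at 3m among them. Marker sums reached 5008 TPM for pericytes and smooth muscle, 2808 TPM for endothelial cells, 2612 TPM for ependymal cells, 2514 TPM for oligodendrocytes and 614.5 TPM for neurons. The part of these cells in the results was not tested. Covariates for neuronal and oligodendrocyte markers were fitted, but the levels of these markers do not overlap between P7 and P60. In bulk RNA, fewer cells of a type and less RNA per cell cannot be told apart.

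Slc7a10 and Phgdh were among the most abundant transcripts of these astrocytes, at means over all libraries of 782 and 758 TPM, ranks 146 and 150 of 20613 genes. Psat1 (272 TPM), Aldh1l1 (229.7 TPM) and Psph (154 TPM) followed, and then Gldc (68.9 TPM), Slc6a9 (67.4 TPM), Shmt2 (38.7 TPM) and Srr (32.1 TPM). Shmt1 stood far below the others at 2.51 TPM, rank 11936, where the lowest library of any other member had 17.8 TPM (Srr). Transcripts of the mitochondrial isozyme Shmt2 were thus present at many times the level of those of the cytosolic Shmt1 in all 34 libraries. Within a member, the highest age mean was between 1.27 times (Psat1) and 2.32 times (Shmt1) the lowest.

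**Figure D1:**
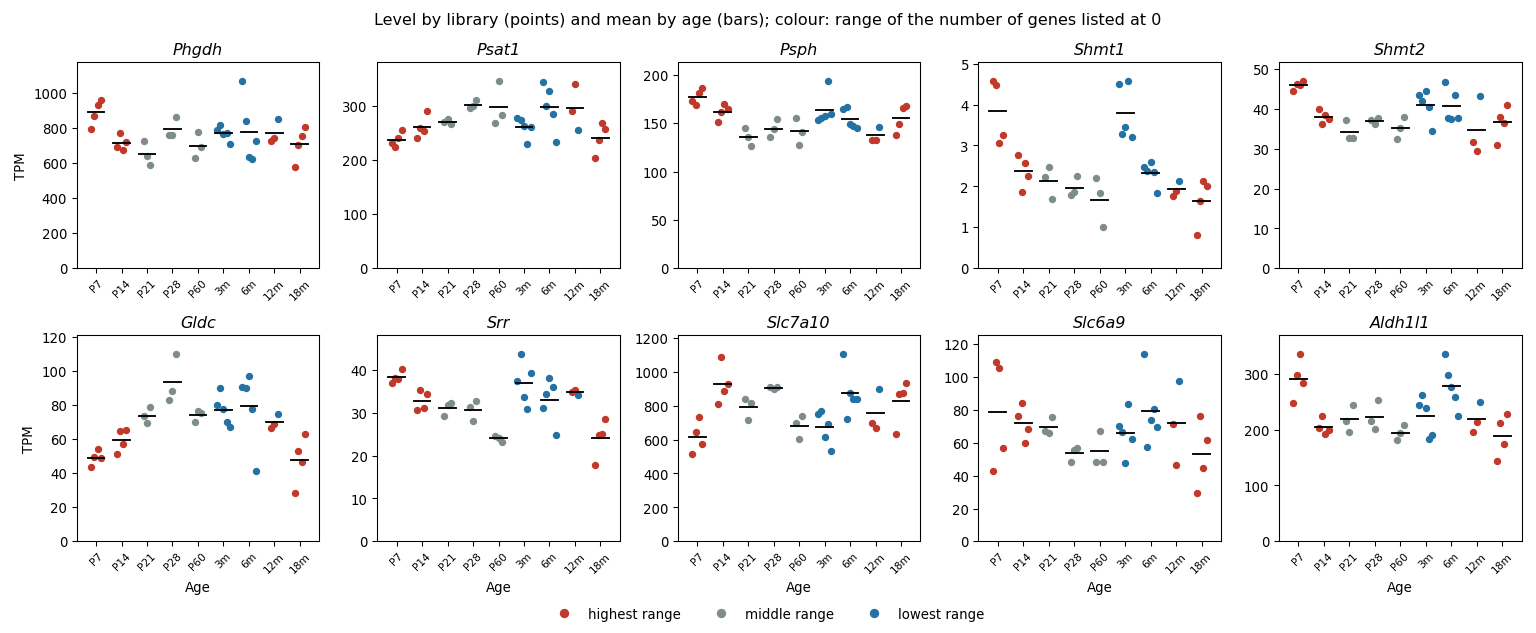
TPM of each of the 10 genes (vertical axes, 1 panel per gene, starting at 0) by age (horizontal axes), with 1 point per library and a bar at the mean of each age. Shmt1 was high at P7 and 3m and low at P60 and 18m, Srr was lowest at P60 and 18m, and Gldc peaked at P28.

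Over the 9 ages, 8 of the 10 members passed limma's F test, where 63.6% of all tested genes did. Phgdh (adjusted p = 0.112) and Slc6a9 (adjusted p = 0.327) did not pass. Against P7, the P60 libraries had 2 members higher (Psat1 and Gldc) and 6 lower (Phgdh, Psph, Shmt1, Shmt2, Srr and Aldh1l1), where 52.8% of all tested genes were called in either direction, 19.5% higher and 33.3% lower. The median log2 difference was -0.36 over the members and -0.15 over all genes. Against 3m, the 18m libraries had 3 members lower (Shmt1, Gldc and Srr) and none higher, where 37.5% of all genes were called (33.4% lower and 4.16% higher), with medians of -0.20 for the members and -0.24 for all genes. An unadjusted p under 0.05 was reached there by 4 members, where 6885 of the 14590 genes tested reached it. The further member was Slc7a10, which was higher at 18m. Against P7, the 18m libraries had 5 members lower (Phgdh, Shmt1, Shmt2, Srr and Aldh1l1) and Slc7a10 higher, where 29.6% of all genes were called (24.9% lower and 4.67% higher), with medians of -0.33 and -0.20. These 3 comparisons share the P7 or the 18m libraries, so their values are not independent.

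The median of all genes was below 0 in these comparisons, and the balance of calls moved with the scaling of the libraries. In P60 vs P7, 36.9% of called genes were higher, and 57.5% were after median-of-ratios rescaling. In 18m vs 3m the share went from 11.1% to 46.6% and in 18m vs P7 from 15.8% to 54.1%, with medians of all genes of 0.01, -0.03 and 0.03 after rescaling. The members lost from the calls by rescaling were Phgdh, Psph and Shmt2 in P60 vs P7 and Phgdh and Shmt2 in 18m vs P7. Slc7a10 was gained in 18m vs 3m. Shmt1 and Srr stayed called in all 3 comparisons, as did Psat1, Gldc and Aldh1l1 wherever they had been called. The 18m replicate 1 had the lowest value of all 34 libraries for 7 of the 10 members, but for 2 after rescaling. The 6m replicate 1 had the highest value for 4 members on either scale.

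**Figure D2:**
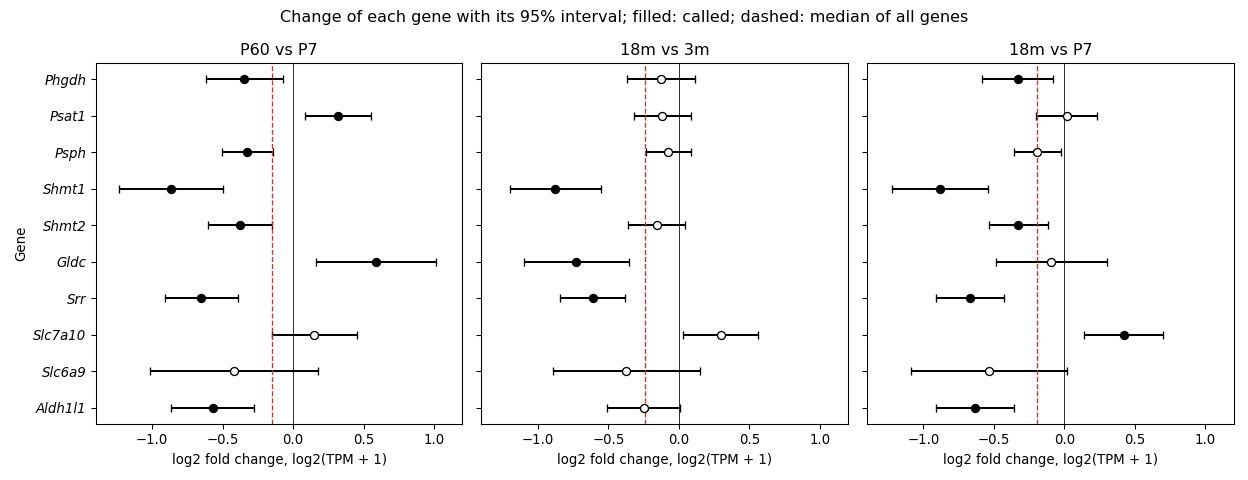
Log2 difference of mean log2(TPM + 1) with its 95% confidence interval (horizontal axes) for each gene (vertical axis) in P60 vs P7, 18m vs 3m and 18m vs P7. Filled points passed an adjusted p of 0.05, and the dashed line marks the median of all tested genes, which lay between -0.24 and -0.15.

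The stretch before a RefSeq transcription start is shown for 5 members that differ in how they moved. Phgdh and Shmt2 have close age profiles, and Shmt1 and Srr had the largest falls at P60 and 18m against P7. Slc7a10 rose from P7 to P14. The Shmt1 stretch lies inside the gene as placed by GENCODE, 60788104 to 60811718 on the minus strand. It is thus downstream of the gene's start in that annotation. The windows are from RefSeq (GRCm38.p6), run 5′ to 3′ on the gene's strand within the 250 bases before the start, and leave out bases annotated as exon. Capitals mark the GC box GGGCGG on either strand.
Phgdh, chr3:98339991-98340219, minus strand: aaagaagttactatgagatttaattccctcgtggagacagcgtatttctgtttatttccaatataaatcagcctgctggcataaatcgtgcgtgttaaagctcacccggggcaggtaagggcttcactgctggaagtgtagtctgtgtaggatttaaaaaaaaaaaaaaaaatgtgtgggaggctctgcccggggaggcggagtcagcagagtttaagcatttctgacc
Shmt2, chr10:127522445-127522694, minus strand: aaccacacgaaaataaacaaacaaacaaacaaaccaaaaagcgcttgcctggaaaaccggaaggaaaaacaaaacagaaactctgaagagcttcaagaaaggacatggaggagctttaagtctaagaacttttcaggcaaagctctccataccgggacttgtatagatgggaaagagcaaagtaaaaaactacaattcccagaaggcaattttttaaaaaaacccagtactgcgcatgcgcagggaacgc
Shmt1, chr11:60811266-60811466, minus strand: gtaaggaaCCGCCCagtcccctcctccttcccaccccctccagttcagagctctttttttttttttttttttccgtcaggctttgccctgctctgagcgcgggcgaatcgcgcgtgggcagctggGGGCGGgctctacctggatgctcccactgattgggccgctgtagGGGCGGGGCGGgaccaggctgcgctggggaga
Srr, chr11:74926004-74926198, minus strand: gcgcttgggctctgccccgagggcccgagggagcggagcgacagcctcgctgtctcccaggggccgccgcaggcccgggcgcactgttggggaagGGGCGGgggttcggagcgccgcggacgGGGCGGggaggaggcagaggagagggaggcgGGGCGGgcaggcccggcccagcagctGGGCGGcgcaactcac
Slc7a10, chr7:35186135-35186384, plus strand: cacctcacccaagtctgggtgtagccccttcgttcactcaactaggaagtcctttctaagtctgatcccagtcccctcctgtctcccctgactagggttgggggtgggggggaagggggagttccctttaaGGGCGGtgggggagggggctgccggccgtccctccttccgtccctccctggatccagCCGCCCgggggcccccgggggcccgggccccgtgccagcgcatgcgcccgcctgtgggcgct
The stretches of Shmt1 and Srr each hold 4 GC boxes, a pair of them in Shmt1 sharing a base, that of Slc7a10 holds 2, and those of Phgdh and Shmt2 hold none. Phgdh and Shmt2 also had the lowest GC content of the members' windows, 44.0% and 40.8%. Srr had 76.8%, and the median of all windows was 52.4%. Psph, the member of closest age profile to Shmt2, had 67.2% and did have a GC box in its window. All bases of that window are annotated as exon, so that no stretch of it is shown. All 10 members matched, with 13 windows. A GC box was in 8 of these 13 windows, from 8 members (all but Phgdh and Shmt2), and in 32.7% of the 32851 windows of all genes. The windows of Shmt1, Psat1, Slc6a9 and Aldh1l1 lie wholly within their genes in GENCODE. The C/EBP-ATF response element TGATGNAA, searched on both strands, was in none of the members' windows and in 3.45% of all windows, and the E-box CACGTG in none and in 6.02%. A match or its absence is a description of these letters in these windows.

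7 members share exonic bases with a gene on the opposite strand in GENCODE mouse release 21, and the library kit is not stated to keep strand, so reads there cannot be told apart. The share was 27.2% of the exonic bases of Srr, over Tsr1, and 27.8% of those of Slc6a9, over Ccdc24. For Slc7a10 it was 17.9% (over Lrp3), for Psph 10.4% (over Cct6a), for Aldh1l1 11% (over a predicted gene), for Shmt1 4.74% (over Smcr8) and for Shmt2 1.03% (over Ndufa4l2). Lrp3 was lower at 18m than at P7, with a log2 difference of -0.74 (adjusted p = 0.00694), where Slc7a10 was higher. Tsr1 averaged 9.53 TPM over all libraries against 32.1 TPM for Srr. Tsr1 fell with Srr in 18m vs P7, with a log2 difference of -0.50 (adjusted p = 0.0319). Its log2 differences were -0.45 (adjusted p = 0.0501) in P60 vs P7, -0.35 (adjusted p = 0.0949) in 18m vs 3m, -0.41 (adjusted p = 0.12) in 18m vs 12m and 0.30 (adjusted p = 0.317) in 3m vs P60, each of the same sign as Srr. Smcr8, at a mean of 2.77 TPM against 2.51 TPM for Shmt1, fell with Shmt1 in 18m vs 3m (log2 difference -0.50, adjusted p = 0.02) and also fell in 18m vs 12m (log2 difference -0.65, adjusted p = 0.0181), where Shmt1 was not called. Its log2 differences were 0.06 (adjusted p = 0.792) in P60 vs P7, -0.34 (adjusted p = 0.135) in 18m vs P7 and 0.09 (adjusted p = 0.8) in 3m vs P60. Cct6a fell with Psph in P60 vs P7, with -0.52 (adjusted p = 0.00247). It was also lower in 18m vs P7 (log2 difference -0.41, adjusted p = 0.0139, limma), where Psph was not called. Ccdc24 rose in P60 vs P7 (log2 difference 1.18, adjusted p = 0.00419, limma) and fell in 6m vs 3m (log2 difference -0.84, adjusted p = 0.0464). Slc6a9 was called in neither. The part of the shared bases in these results was not tested.

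The 3 enzymes of serine synthesis did not all change in the same direction. Phgdh, which catalyses the first and committed step (chromosome 3, 98313170 to 98339990, GRCm38), had 798, 868, 934 and 959 TPM at P7. At P60 it had 631, 777 and 692 TPM, all below P7, and at 18m 576, 707, 756 and 807 TPM, where the highest library overlapped the lowest of P7. Phgdh fell 1.27-fold from P7 to P60 (log2 difference -0.35, SE 0.13, adjusted p = 0.0304, limma) and 1.25-fold from P7 to 18m (log2 difference -0.33, SE 0.12, adjusted p = 0.0434). Neither call held after rescaling, at log2 differences of -0.16 (adjusted p = 0.368) and -0.07 (adjusted p = 0.796). The first was also lost without P7 replicate 3 or 4 or P60 replicate 1 or 3, with log2 differences of -0.34 to -0.27, and the second without P7 replicate 2, 3 or 4 or 18m replicate 1 or 2, with -0.34 to -0.23. From P14 on, the age means of Phgdh lay between 652 TPM (P21) and 795 TPM (P28). At 6m the libraries had 1070.4, 842, 636, 625 and 727 TPM, the widest spread of any age.

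Psat1, the transaminase of the second step, went the other way. It had 231, 223, 240.0 and 255 TPM at P7 and 267, 345 and 282 TPM at P60, with no overlap. It rose 1.26-fold (log2 difference 0.32, SE 0.11, adjusted p = 0.0207, limma), and 0.50 after rescaling (adjusted p = 0.00228). The call was lost without P7 replicate 2 (0.29, adjusted p = 0.0530) or P60 replicate 2 (0.21, adjusted p = 0.167). It was highest at P28, 302 ± 7.85 TPM (SD, n = 3), and at 18m it was 241 ± 27.9 TPM (SD, n = 4), near its P7 mean of 237 TPM. The 18m and P7 libraries overlapped, and their log2 difference was 0.02 with a 95% confidence interval of -0.20 to 0.23.

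Psph, the phosphatase of the last step, had 173, 169, 182 and 186 TPM at P7 and 156, 128 and 141 TPM at P60, all of the latter lower. It fell 1.25-fold (log2 difference -0.33, SE 0.09, adjusted p = 0.00383, limma), with -0.14 after rescaling (adjusted p = 0.25). The 18m libraries of Psph, 138, 149, 166 and 168 TPM, also lay below every P7 library but the test was not passed (adjusted p = 0.0759), and the difference turned to 0.07 after rescaling. Between 3m and 18m none of the 3 synthesis genes was called. Their log2 differences were -0.13 for Phgdh (interval -0.36 to 0.11), -0.12 for Psat1 (interval -0.32 to 0.09) and -0.07 for Psph (interval -0.23 to 0.09), and all 3 turned positive after rescaling, at 0.12, 0.13 and 0.17.

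Shmt1 (chromosome 11, 60788104 to 60811718) had the largest changes of the members, and they ran in both directions over life. At P7 its libraries had 4.58, 4.47, 3.05 and 3.27 TPM and at P60 2.21, 1.83 and 0.997 TPM. At 3m they had 4.51, 3.28, 3.44, 4.57 and 3.21 TPM and at 18m 0.806, 1.65, 2.14 and 2.02 TPM. Every P7 library was above every P60 and 18m library, and every 3m library was above those too. Shmt1 fell 2.29-fold from P7 to P60 (log2 difference -0.87, SE 0.18, adjusted p = 0.000459, limma), was 2.26-fold higher at 3m than at P60 (log2 difference 0.86, SE 0.17, adjusted p = 0.00171) and fell 2.3-fold from 3m to 18m (log2 difference -0.88, SE 0.16, adjusted p = 0.000184). Against P7 the 18m libraries were 2.32-fold lower (log2 difference -0.89, SE 0.17, adjusted p = 0.000288), a comparison within a range of genes at 0. Shmt1 kept these 4 calls when any 1 library was left out, with a highest adjusted p of 0.0352, and after rescaling the differences were -0.73 in P60 vs P7, -0.72 in 18m vs 3m and -0.72 in 18m vs P7. With a term for the range of genes at 0, 18m vs 3m was -0.73 and no longer called (adjusted p = 0.24). Between these ages Shmt1 was at 2.37 ± 0.398 TPM (SD, n = 4) at P14, 1.97 ± 0.257 TPM (SD, n = 3) at P28, 2.33 ± 0.295 TPM (SD, n = 5) at 6m and 1.93 ± 0.183 TPM (SD, n = 3) at 12m, and all 5 of the 6m libraries were below the 3m ones.

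Transcripts of dividing cells were high at the same ages as Shmt1. The sum of Mki67, Top2a, Cdk1, Ccnb1 and Aurkb, all 5 of them measured, was 79.2 to 112 TPM at P7 and 71.1 to 118 TPM at 3m. It was 14.4 to 18.1 TPM at P60, 17.7 to 52.5 TPM at 6m and 11.6 to 23.1 TPM at 18m. The part of dividing cells in the Shmt1 result was not tested.

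**Figure D3:**
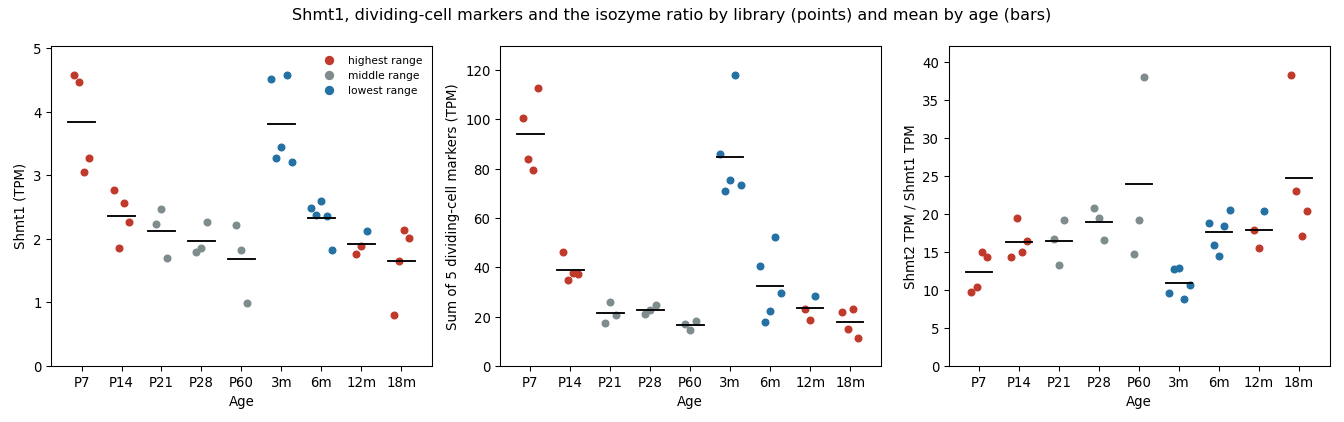
TPM of Shmt1 (left), summed TPM of 5 dividing-cell markers (middle) and the ratio of Shmt2 to Shmt1 TPM (right) by age, with 1 point per library coloured by its range of genes at 0 and a bar at the mean of each age. Shmt1 and the marker sum were both highest at P7 and 3m, where the ratio was lowest.

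Shmt2 (chromosome 10, 127517123 to 127522444) moved less. It had 44.6, 46.3, 46 and 47 TPM at P7 and 32.5, 35.2 and 38 TPM at P60, below every P7 library. It fell 1.31-fold (log2 difference -0.38, SE 0.11, adjusted p = 0.00654, limma), with -0.20 after rescaling (adjusted p = 0.0869). At 18m it had 30.9, 38.1, 36.5 and 41.1 TPM, also all below P7 (log2 difference -0.33, SE 0.10, adjusted p = 0.0191). That call was lost without 18m replicate 1 (-0.25, adjusted p = 0.0880) and after rescaling (-0.07, adjusted p = 0.651). From 3m to 18m the log2 difference of Shmt2 was -0.16 (interval -0.36 to 0.04) and turned to 0.08 after rescaling.

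The balance of the transcripts of the isozymes can be read within each library, where the scaling of libraries cancels but for the pseudocount. The range of genes at 0 differs between 18m and 3m, and Shmt1 is at low level. The ratio was not tested with a term for the range. The mean log2 ratio of Shmt2 to Shmt1, each as TPM + 1, was 3.29 ± 0.26 (SD, n = 4) at P7, 3.78 ± 0.46 (SD, n = 3) at P60, 3.13 ± 0.20 (SD, n = 5) at 3m, 3.65 ± 0.16 (SD, n = 5) at 6m and 3.85 ± 0.23 (SD, n = 4) at 18m. It was higher at 18m than at 3m by 0.72 and at 6m than at 3m by 0.51, each with p = 0.00794 in a two-sided exact permutation test, the smallest the design allows, and 0.0437 after adjustment over 11 comparisons. With any 1 library left out the smaller design gave adjusted values of 0.0655 to 0.0786 in exact tests of 18m vs 3m, at differences of 0.62 to 0.81, and 8 of 10 such exact tests missed the threshold in 6m vs 3m. The same exact test gave 0.56 for 18m vs P7 (p = 0.0286, adjusted 0.0786), -0.65 for 3m vs P60 (p = 0.0179, adjusted 0.0655) and 0.49 for P60 vs P7 (p = 0.143, adjusted 0.275).

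Aldh1l1 (chromosome 6, 90486427 to 90600203) was highest at P7 and had already fallen at P14. Its libraries had 248, 298, 334 and 283 TPM at P7 and 202, 225, 192 and 199 TPM at P14, all of the latter lower. The fall to P14 was 1.42-fold (log2 difference -0.50, SE 0.13, adjusted p = 0.0187, limma). It was lost after rescaling (-0.37, adjusted p = 0.0575) and without P7 replicate 3 (-0.43, adjusted p = 0.0619), P14 replicate 3 (-0.47, adjusted p = 0.0509) or P14 replicate 4 (-0.49, adjusted p = 0.0506). At P60 Aldh1l1 had 182, 194 and 207 TPM and at 18m 144, 211, 173 and 227 TPM, again all below P7. The falls from P7 were 1.5-fold at P60 (log2 difference -0.57, SE 0.15, adjusted p = 0.00221) and 1.54-fold at 18m (log2 difference -0.63, SE 0.13, adjusted p = 0.00103). Both were kept in every alternative that could be fitted and with each library left out. At 6m Aldh1l1 stood at 279 ± 41.4 TPM (SD, n = 5), and its difference from 3m, 0.32, missed the threshold (adjusted p = 0.0894) but passed after rescaling (0.38, adjusted p = 0.0269) or without 6m replicate 5 (0.39, adjusted p = 0.0455). From 3m to 18m the log2 difference of Aldh1l1 was -0.25 (interval -0.51 to 0.01), and -0.35 without 18m replicate 4 (adjusted p = 0.0437).

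Gldc (chromosome 19, 30098447 to 30175429) rose between P7 and P60 and was low again at 18m. It had 43.6, 49.4, 54.4 and 48.9 TPM at P7, 82.8, 88.6 and 110.0 TPM at P28 and 70.2, 76.8 and 75.2 TPM at P60. Every P28 and P60 library was above every P7 library. Gldc rose 1.51-fold from P7 to P60 (log2 difference 0.59, SE 0.21, adjusted p = 0.0194, limma), a call lost without P7 replicate 1 (0.53, adjusted p = 0.0502) or P60 replicate 2 (0.56, adjusted p = 0.0561). At 3m it had 79.8, 90.2, 77.5, 69.9 and 66.9 TPM and at 18m 28.3, 53.1, 46.3 and 63 TPM, without overlap. It fell 1.61-fold (log2 difference -0.73, SE 0.18, adjusted p = 0.00308), and -0.49 after rescaling (adjusted p = 0.0156). With a term for the range of genes at 0 the difference was -0.59 (adjusted p = 0.446). The 12m libraries of Gldc, 66.7, 69 and 74.8 TPM, lay above all of 18m (log2 difference -0.60, SE 0.21, adjusted p = 0.0388). That call was lost after rescaling (-0.36, adjusted p = 0.153) and without 18m replicate 1 (-0.38, adjusted p = 0.222), and also without 12m replicate 1, 2 or 3 or 18m replicate 3, at -0.64 to -0.56. At 18m Gldc overlapped its P7 libraries, with a log2 difference of -0.09 (interval -0.49 to 0.30) that turned to 0.16 after rescaling.

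Srr (chromosome 11, 74906359 to 74925948) was lowest at P60 and 18m. Its libraries had 36.9, 38, 37.8 and 40.2 TPM at P7 and 24.6, 24.2 and 23.1 TPM at P60. At 3m they had 37.3, 43.7, 33.7, 30.9 and 39.2 TPM, at 12m 34.9, 35.2 and 34.1 TPM and at 18m 17.8, 24.9, 25 and 28.4 TPM. All P60 and 18m libraries were below all P7, 3m and 12m libraries. Those of P28 and 6m overlapped the 18m values, with lowest libraries of 28.1 and 24.9 TPM. Srr fell 1.59-fold from P7 to P60 (log2 difference -0.65, SE 0.13, adjusted p = 0.000313, limma), was 1.54-fold higher at 3m than at P60 (log2 difference 0.59, SE 0.12, adjusted p = 0.00212) and fell 1.54-fold from 3m to 18m (log2 difference -0.61, SE 0.11, adjusted p = 0.000222). Within a range of genes at 0, it was 1.59-fold lower at 18m than at P7 (log2 difference -0.67, SE 0.12, adjusted p = 0.000162). These calls were kept with each library left out, at a highest adjusted p of 0.0181, and after rescaling (-0.47 in P60 vs P7, -0.38 in 18m vs 3m and -0.41 in 18m vs P7). With a term for the range, 18m vs 3m was -0.65 (adjusted p = 0.13). Srr also fell 1.45-fold from 12m to 18m (log2 difference -0.53, SE 0.13, adjusted p = 0.0069), but not after rescaling (-0.29, adjusted p = 0.0652) or in a fit of those ages alone (-0.53, adjusted p = 0.106).

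Srr is expressed by neurons as well as by astrocytes. The sum of 10 neuronal markers, none of them at 0 in all libraries of an age, was 41.9 to 67.9 TPM at P7, 310 to 614.5 TPM at P60, 137 to 557 TPM at 3m, 75.1 to 351 TPM at 12m and 65.9 to 156 TPM at 18m. Its mean was higher at P60 (418 TPM) than at P7 (54.8 TPM), where Srr was lower, and it was lower at 18m (105 TPM) than at 3m (368 TPM) and 12m (222 TPM), as Srr was. With covariates for neuronal and oligodendrocyte markers, the log2 difference of Srr was -0.95 in P60 vs P7, -0.54 in 18m vs 3m and -0.80 in 18m vs P7, all called. In P60 vs P7 the covariates do not overlap between the ages. The mean log2 of the neuronal markers was at most 2.29 at P7 and at least 4.26 at P60. That of the oligodendrocyte markers was at most 2.83 and at least 5.45. A fit with them thus cannot separate marker level from age there. In that comparison, 3502 of the 14590 tested genes were called with these covariates and 7697 without them. Of the 8 members called in P60 vs P7, 3 (Shmt1, Srr and Aldh1l1) were called with these covariates, and 5 were not. The 5 had log2 differences of -0.23 for Phgdh, 0.14 for Psat1, -0.27 for Psph, -0.13 for Shmt2 and 0.33 for Gldc.

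The exchanger Slc7a10 (chromosome 7, 35186385 to 35201114) rose between P7 and P14. It had 512, 645, 732 and 575 TPM at P7 and 807, 1087, 886 and 927 TPM at P14, without overlap. It rose 1.5-fold (log2 difference 0.59, SE 0.14, adjusted p = 0.00839, limma), in every alternative and with each library left out. At P60 it was back at 680.1 ± 68.8 TPM (SD, n = 3) and at 3m 672 ± 97.5 TPM (SD, n = 5), ages whose libraries overlapped those of P7. At 6m it had 1104, 723, 874, 836 and 838 TPM and was higher than at 3m (log2 difference 0.38, SE 0.12, adjusted p = 0.0478), a call lost without any of 3m replicates 3, 4 and 5 and 6m replicates 1, 3, 4 and 5, at 0.29 to 0.39. At 18m Slc7a10 had 634, 866, 875 and 932 TPM. It was 1.34-fold higher than at P7, with the lowest 18m library inside the P7 values (log2 difference 0.42, SE 0.14, adjusted p = 0.0216), and 0.68 after rescaling (adjusted p = 0.000477). That call was lost without P7 replicate 1 or 4 or 18m replicate 2 or 4, at 0.34 to 0.39. Against 3m the difference was 0.30 (adjusted p = 0.0718), and 0.54 with an adjusted p of 0.00198 after rescaling. Without 18m replicate 1 it was 0.42 and called (adjusted p = 0.0227), and without 3m replicate 2 it was 0.35 (adjusted p = 0.0488).

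The glycine transporter Slc6a9 (chromosome 4, 117834506 to 117875198) varied more within ages than the other members, with a residual SD of 0.40 in log2 units where the others had 0.11 to 0.29. It had 43, 109, 105 and 57 TPM at P7, 70.4, 66.7, 47.8, 83.4 and 62.5 TPM at 3m and 29.8, 76.1, 44.9 and 61.8 TPM at 18m. These ages overlapped, and Slc6a9 was not called in any of the 11 comparisons. The log2 differences were -0.42 in P60 vs P7 (interval -1.02 to 0.18), -0.37 in 18m vs 3m (interval -0.90 to 0.15) and -0.53 in 18m vs P7 (interval -1.08 to 0.02). The last was -0.78 and called without P7 replicate 1 (adjusted p = 0.0352).

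Between neighbouring ages few members changed. From P7 to P14, Slc7a10 rose and Shmt1 and Aldh1l1 fell, 3 of 10 members where 11.8% of all genes were called (3.28% higher and 8.57% lower). Shmt1 went from 3.84 to 2.37 TPM (log2 difference -0.52, SE 0.17, adjusted p = 0.0409, limma), a call that was lost after rescaling (-0.42, adjusted p = 0.0661) and without any of P7 replicates 1, 2 and 4 and P14 replicates 2, 3 and 4 (-0.57 to -0.44). No member was called from P14 to P21, from P21 to P28 or from P28 to P60, where limma called 13.2% (5.6% higher and 7.59% lower), 0.0206% and 1.12% (0.212% higher and 0.905% lower) of all genes. An unadjusted p under 0.05 was reached by 1 member (Psph, lower at P21), by 0 and by 2 (Srr and Slc7a10, lower at P60), where 4400, 1007 and 2680 of the 14590 genes reached it. A fit of only the ages compared called 7 members from P7 to P14, adding Phgdh, Shmt2 and Srr (lower) and Gldc (higher) to the 3 above. It called Psph (-0.25, adjusted p = 0.0357) and Gldc (0.31, adjusted p = 0.0416) from P14 to P21, and Slc7a10 from P28 to P60 (-0.42, adjusted p = 0.0317). Of the 14590 genes, such fits called 4914 from P7 to P14, 4125 from P14 to P21 and 716 from P28 to P60. From P60 to 3m, Shmt1 and Srr rose, where 10.2% of all genes were called (8.26% higher and 1.93% lower).

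From 3m to 6m, Shmt1 fell and Slc7a10 rose, where 9.32% of all genes were called (2.07% higher and 7.25% lower). For Shmt1 the log2 difference was -0.52 (adjusted p = 0.0267, limma), lost without 3m replicate 1 or 4 or 6m replicate 5, at -0.47. No member was called from 6m to 12m, where limma called 0.0548% of all genes (0.0343% higher and 0.0206% lower). An unadjusted p under 0.05 was reached there by Shmt2 and Aldh1l1, both lower at 12m, and by 1513 genes in all. Without 12m replicate 3, the library of that age with the fewest genes at 0, Shmt2 was called from 6m to 12m (-0.40, adjusted p = 0.0499). From 12m to 18m, Gldc and Srr fell, where 20.2% of all genes were called (18.6% lower and 1.52% higher).

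The wider pathway was called about as often as all genes in P60 vs P7, 18m vs 3m and 18m vs P7. Calls of these further genes, here and below, were not repeated after rescaling, with the range term or without single libraries. In 18m vs 3m, 464 of all genes were called with the range term and 5476 without it. Of 70 further genes on 7 lists, 66 were tested, and in P60 vs P7 14 were higher and 24 lower, 57.6% where 52.8% of all genes were called, with a median log2 difference of -0.13 against -0.15 for all genes. In 18m vs 3m 3 were higher and 18 lower, 31.8% against 37.5% (median -0.18 against -0.24), and in 18m vs P7 4 were higher and 15 lower, 28.8% against 29.6% (median -0.17 against -0.20). Among 14 other transporters of serine and glycine, 1 was higher and 9 lower at P60 than at P7, where 19.5% of all genes were higher and 33.3% lower. The carrier Slc38a5 went from 84.7 ± 16.1 to 8.94 ± 1.9 TPM (SD; log2 difference -3.11, adjusted p = 0.000537, limma), and Slc1a4 (ASCT1), an exchanger of serine, from 258 ± 20.0 to 106 ± 3.95 TPM (log2 difference -1.27, adjusted p = 0.00024). Slc38a2 also fell (log2 difference -1.20, adjusted p = 0.00192), while Slc38a1 went the other way, from 16.6 ± 2.64 to 46.2 ± 9.44 TPM (log2 difference 1.41, adjusted p = 0.000505). At 18m Slc1a4 was higher than at 3m (log2 difference 0.55, adjusted p = 0.0395) and Slc38a1 lower (log2 difference -1.09, adjusted p = 0.00196), and in 18m vs P7 the transporters had 0 higher and 6 lower, where 4.67% of all genes were higher and 24.9% lower, among them Slc38a2 (log2 difference -0.89, adjusted p = 0.0176) and Slc7a8 (log2 difference -0.85, adjusted p = 0.00614).

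Of 17 other folate cycle genes, 2 were higher and 6 lower in P60 vs P7 (19.5% and 33.3% of all genes), 0 and 4 in 18m vs 3m (4.16% and 33.4%), and 1 and 3 in 18m vs P7 (4.67% and 24.9%). Tyms, thymidylate synthase, went from 24.6 ± 4.91 to 13 ± 2.27 TPM from 3m to 18m (log2 difference -0.86, adjusted p = 0.000818, limma) and was at 27.0 ± 2.96 TPM at P7 (log2 difference -1.0 for 18m vs P7, adjusted p = 0.000389), so that it was low at 18m as Shmt1 was. The folate receptor Folr1 rose from 7.87 ± 3.82 to 35.7 ± 13.6 TPM from P7 to P60 (log2 difference 2.07, adjusted p = 0.00048) and was also higher at 18m than at P7 (log2 difference 1.07, adjusted p = 0.0422), at 17.6 TPM. The sum of 4 ependymal cell markers moved with Folr1, at a mean of 413 TPM at P7, 1794 TPM at P60 and 1102 TPM at 18m, and its part in this result was not tested. Among 12 genes of the methionine cycle and choline oxidation, 6 were higher and 1 lower in P60 vs P7, and 0 higher and 7 lower in 18m vs 3m. The largest of these falls at 5 TPM or more was that of Ahcyl2 (log2 difference -1.06, adjusted p = 0.000239), a relative of S-adenosylhomocysteine hydrolase.

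Of all genes, 19.5% were higher and 33.3% lower in P60 vs P7, 4.16% and 33.4% in 18m vs 3m, and 4.67% and 24.9% in 18m vs P7. Of 9 other users of serine, 3 were higher and 5 lower in P60 vs P7, 0 and 2 in 18m vs 3m, and 2 and 2 in 18m vs P7. Sdsl, a serine dehydratase-like gene, rose from 17.3 ± 3.09 to 38.5 ± 0.48 TPM from P7 to P60 (log2 difference 1.12, adjusted p = 0.000155, limma) and was higher than at P7 at 18m too (log2 difference 1.0, adjusted p = 0.000316). The other 6 genes of glycine cleavage and mitochondrial glycine had 1 higher and 2 lower in P60 vs P7, 1 and 1 in 18m vs 3m, and 1 and 2 in 18m vs P7. Gcat, which makes glycine from a product of threonine, was higher at 18m than at 3m (log2 difference 0.30, adjusted p = 0.0329), where Gldc was lower. It was also higher at 18m than at P7 (log2 difference 0.40, adjusted p = 0.0125). Of 6 further genes of serine synthesis and its regulation, 1 was lower in P60 vs P7, 1 higher in 18m vs 3m and 0 called in 18m vs P7. Both calls were of Atf4, a transcription factor of the amino acid response (log2 difference -0.70, adjusted p = 6.43e-05 and log2 difference 0.40, adjusted p = 0.00298). Of 2 genes of D-amino acid breakdown, Dao and Ddo, 1 was called in P60 vs P7 (Ddo, higher) and 0 in the other 2 comparisons.

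The age profiles of the members were compared by the root mean square difference of their 9 age means in log2(TPM + 1), each centred on its own mean, a description over 9 points that share libraries. Psph and Shmt2 were the closest members, at 0.05, followed by Phgdh and Shmt2 (0.09) and Phgdh and Psph (0.11), genes that were all highest at P7 and lowest at P21. Shmt1 and Gldc were the farthest apart, at 0.46. The TPM were not rescaled for these profiles. The age means of Phgdh, Psat1, Psph and Shmt2 spread least about their own mean, by a root mean square of 0.12 to 0.13. Those of Shmt1 and Gldc spread by 0.31. Psat1 was 0.19 from Phgdh and 0.23 from Psph, both more than its own spread of 0.125. Among 10254 other genes whose mean reached 5 TPM, the closest to Phgdh were Riox2, Hmgxb4 and Exoc7 (0.02 to 0.03), to Psph Samm50, Stoml2 and Txnl4a (0.03 to 0.04) and to Shmt2 Txnl4a, Elp5 and Cops8 (0.02 to 0.04). Psat1 was most like Arid4a, Pcf11 and Rnf13 (0.04 to 0.05), and Srr most like Sh3bgrl, Nus1 and Klhdc10 (0.03 to 0.04). The genes nearest to Shmt1 were Ddr2, Spats2 and Slc24a3 (0.06 to 0.08), to Gldc Ncoa1, Papss2 and Deptor (0.07) and to Aldh1l1 Sfxn2, Syt11 and Sall2 (0.06 to 0.07). Slc7a10 was nearest to Mcrip2, Il18 and Adora2b (0.07), and Slc6a9 to Aifm1, Rcn2 and Sphk2 (0.09 to 0.10).

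**Figure D4:**
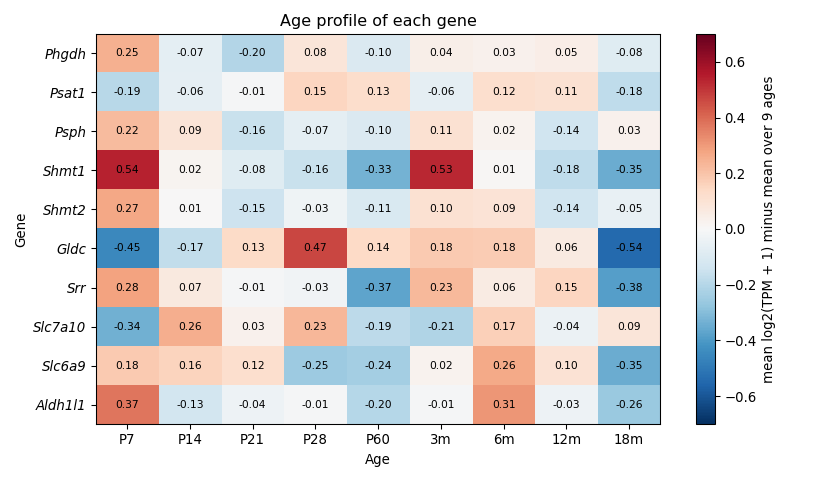
Mean log2(TPM + 1) of each gene (rows) at each age (columns) minus its mean over the 9 ages, printed in each cell and shaded from blue (below) to red (above). Shmt1 was 0.54 above its mean at P7 and 0.53 above at 3m, Gldc ran from 0.47 above at P28 to 0.54 below at 18m, and the rows of Phgdh, Psph and Shmt2 look alike.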

How the data were processed

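Polyadenylated RNA of 34 astrocyte libraries at 9 ages was measured, 3 to 5 libraries per age, grouped by the age in the labels. The authors deposited TPM per gene and library, and per the submitters' processing notes, which give no roles, the tools were RSEM 1.2.28, DESeq2 1.36.0, STAR 2.7.1a and Trim Galore 0.6.4 and the build mm10. Depth is unknown, so that no counting interval is given. Of 20614 genes, 1 had no values.

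Genes reaching 1 TPM in 3 or more libraries (14590, all 10 members among them) were analysed as log2(TPM + 1) in R 4.3.3 by limma 3.58.1 (moderated variances with trend and robust settings, statmod 1.5.0, 1 mean per age, all libraries in 1 fit) and Benjamini-Hochberg adjustment over all genes. The method was tested on simulated data. The isozyme ratio was compared by two-sided exact permutation tests adjusted over 11 comparisons. The members, lists and tests were chosen with earlier results of these data known. Named further genes were, per main comparison, the 3 called higher and the 3 called lower with the largest log2 difference at 5 TPM or more in the higher age, and, for each member, the 3 genes of closest age profile. Genes over a member's exons were named from the annotation after the data were seen, as were Ddo and the P60 vs P7 value of Atf4, the single calls of their lists there.

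The limma comparisons were repeated for the members and for the number of all genes called. The settings were quantile normalization or rescaling by median of ratios, a pseudocount of 0.1 and a filter of 5 TPM or none. Array weights, a replicate block, covariates for neuronal and oligodendrocyte markers and a term for the range of genes at 0 were also used. The compared ages were fitted alone, and each library was left out in turn. The isozyme ratio was repeated with the pseudocount of 0.1 and without each library. The further genes were not repeated. Figures were drawn in Python 3.11.15 (pandas 2.3.3, matplotlib 3.10.9). Positions and exons were read from GENCODE mouse release 21 (GRCm38) and promoter windows from RefSeq (GRCm38.p6). Protein sequences were not analysed here.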

Additional observations from a re-analysis of the deposited data

Results flagged for a closer look

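Psph at 3m stood out in 1 of its 5 libraries. The 3m replicate 4 had 194 TPM, where the other 4 had 153 to 160 TPM, so that its gap to the nearest library was 0.84 of the range of the age, above the critical value of 0.71 for 5 samples. Among the 3m libraries it also had the highest sums of markers of oligodendrocyte precursors (116 TPM), ependymal cells (2487 TPM), pericytes and smooth muscle (2719 TPM) and dividing cells (118 TPM), and the lowest sums of markers of astrocytes (11585 TPM), neurons (137 TPM) and oligodendrocytes (361 TPM). Their part in the Psph value was not tested. It was 1 such value among 50 sets of libraries of 1 gene and age, where chance gives about 1 in 20.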

How the results depend on the processing

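Depth is unknown for TPM and limits most Shmt1, at 0.806 to 4.58 TPM, which was not tested under the filter of 5 TPM. Of the 26 calls of a member in a comparison, 9 were kept in every alternative that could be fitted and with each library left out. They were those of Shmt1, Srr and Aldh1l1 in P60 vs P7 and in 18m vs P7, of Slc7a10 in P14 vs P7 and of Shmt1 and Srr in 3m vs P60. Of 49 member differences tracked, 39 kept their direction throughout. The term for the range of genes at 0 could not be fitted to P60 vs P7, P21 vs P14, 3m vs P60 and the F test. In 18m vs P7 and P14 vs P7, which lie within a range, it cannot change the log2 difference. The size of none of the 9 differences was thus probed by this term. The cause of the changes below was not tested.

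After median-of-ratios rescaling, 5 members were called in P60 vs P7 and 1 in P14 vs P7, and 1 gene in P28 vs P21 and 36 in 12m vs 6m. In 18m vs 3m the log2 differences turned to 0.12 for Phgdh, 0.13 for Psat1, 0.17 for Psph and 0.081 for Shmt2, and in 18m vs P7 to 0.069 for Psph and 0.16 for Gldc. Quantile normalization called 1 member in P14 vs P7, 0 in 6m vs 3m and 0 in 18m vs 12m, and 2739 genes in 18m vs P7, 252 in P60 vs P28, 49 in 12m vs 6m and 1165 in 18m vs 12m, and turned Gldc in 18m vs P7 to 0.094.

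With array weights, 6 members were called in P14 vs P7, 1 in P21 vs P14, 2 in P60 vs P28, 4 in 3m vs P60 and 0 in 6m vs 3m. The genes called were 6739 in 18m vs P7, 6008 in P14 vs P7, 4946 in P21 vs P14, 224 in P28 vs P21, 2480 in P60 vs P28, 3206 in 3m vs P60, 566 in 6m vs 3m, 1 in 12m vs 6m and 1427 in 18m vs 12m, and Psph in 18m vs 3m was 0.0015 and Gldc in 18m vs P7 0.13.

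A fit of only the ages compared called 7 members in P14 vs P7, 2 in P21 vs P14, 1 in P60 vs P28, 0 in 6m vs 3m and 0 in 18m vs 12m. It called 4914 genes in P14 vs P7, 4125 in P21 vs P14, 1 in P28 vs P21, 716 in P60 vs P28, 7 in 6m vs 3m, 0 in 12m vs 6m and 0 in 18m vs 12m.

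With covariates for neuronal and oligodendrocyte markers, 3 members were called in P60 vs P7, 0 in 6m vs 3m and 1 in 18m vs 12m, and 3502 genes in P60 vs P7, 302 in P60 vs P28 and 21 in 12m vs 6m, and Psat1 in 18m vs P7 was -0.088. The term for the range called 0 members and 464 genes in 18m vs 3m, 2 genes in 12m vs 6m and 1687 in 18m vs 12m. It gave 0.094 for Phgdh, 0.060 for Psph, 0.33 for Shmt2, 0.38 for Slc6a9 and 0.038 for Aldh1l1 in 18m vs 3m, and 0.094 for Shmt2 in 12m vs 6m.

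A pseudocount of 0.1 called 0 members in 6m vs 3m and turned the log2 ratio of Shmt2 to Shmt1 in 12m vs 6m to 0.015. Without a filter, 12 genes were called in P28 vs P21, 1 member in 6m vs 3m and 1 in 18m vs 12m. The filter of 5 TPM called 1 member in 3m vs P60 and 1 in 6m vs 3m.

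The replicate numbers did not pair the libraries, with a mean correlation of deviations of 0.0023 over 119 pairs of the same number. With a replicate block, 8 members were called in P60 vs P7, 4 in 18m vs 3m (Aldh1l1 added, -0.31, adjusted p = 0.0384) and 5 in 18m vs P7 (Phgdh lost, -0.33, adjusted p = 0.0517), and 493 genes in P60 vs P28.

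Leaving out 1 library at a time called 3471 (without 18m replicate 1) to 5599 genes in 18m vs 3m, 628 to 1268 in P14 vs P7, 566 to 1454 in P21 vs P14, 0 to 4 in P28 vs P21, 9 (without P28 replicate 3) to 114 in P60 vs P28, 675 to 1272 in 3m vs P60, 574 to 1559 in 6m vs 3m, 2 to 268 (without 12m replicate 3) in 12m vs 6m and 847 (without 18m replicate 1) to 3346 in 18m vs 12m. It called 1 to 3 members in P14 vs P7, 0 to 2 in 6m vs 3m, 0 to 1 in 12m vs 6m and 1 to 2 in 18m vs 12m. In 18m vs P7, Psat1 ran from -0.036 to 0.093 and Gldc from -0.24 to 0.13 (without 18m replicate 1). The log2 ratio of Shmt2 to Shmt1 ran from 0.62 to 0.81 in 18m vs 3m, 0.45 to 0.57 in 6m vs 3m, -0.12 to 0.061 in P21 vs P14, -0.15 to 0.30 in P60 vs P28 and -0.17 to 0.047 in 12m vs 6m.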
